A study of Homo sapiens with 60 samples.

Results

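OL9-119 added to topotecan was compared with topotecan alone in F7, 1 knockout clone of the human embryonic kidney line HEK293A. The members were chosen by sample title: the 4 libraries of clone F7 given topotecan with OL9-119 and the 4 libraries of clone F7 given topotecan, 8 of the 60 libraries of the series. The TDP1 gene of these cells had been targeted for knockout with CRISPR/Cas9, using guides against exons present in all its protein-coding transcripts. The combination libraries came from F7 cells given 100 nM topotecan and 5 µM OL9-119. The topotecan libraries came from F7 cells given 100 nM topotecan in 0.1% DMSO. The label of the combination names no DMSO, so a difference in solvent cannot be told apart from the addition of OL9-119. Cells of both groups carried the knockout, grew in medium (DMEM/F12) that held 10% fetal bovine serum, and were treated for 5 to 5.5 hours. Poly(A) RNA was sequenced from 4 biological replicates a group. F7 cells given 5 µM OL9-119 in 0.1% DMSO without topotecan, or 0.1% DMSO alone, and the same groups of 2 other knockout clones, C6 and G6, were used for comparison (4 libraries each). Untreated libraries of each clone, given neither drug nor DMSO (4 each), were part of the fit but of no comparison. No unedited cells were used here, and F7 is a single clone, so clone and knockout cannot be told apart.

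Topotecan traps topoisomerase 1 on DNA, and the enzyme TDP1 removes the trapped protein. OL9-119 is known as an inhibitor of TDP1, so in cells whose TDP1 gene has been disrupted the comparison asks what the compound changes besides that enzyme. Of the genes that moved, 67 fall on gene lists drawn up for known systems, chiefly the following. In the integrated stress response, kinases that sense amino acid shortage, misfolded protein, viral RNA or mitochondrial trouble slow translation and favour synthesis of the transcription factor ATF4, which with its partner CHOP (gene DDIT3) turns on genes for amino acid supply. In the heat shock response, the factor HSF1 turns on cytosolic chaperones when they are in short supply. The mitochondrial genome is transcribed from both strands into long precursors that carry rRNAs, tRNAs and mRNAs of the respiratory chain.

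The 8 libraries held 8.63, 13.8, 9.12 and 8.17 M counts with the combination and 11.3, 14.4, 6.83 and 15.4 M counts with topotecan. The depth of the 60 libraries ran between 4.62 and 20.9 M counts. Levels are given as CPM (counts per 1 M counts of the library after TMM scaling). Of 12 markers of HEK293 cells 11 had at least 15 counts in each of the 8 libraries, and INA had 0 to 9. The 12 blood cell markers summed to 9.45 to 12.4 CPM with the combination and 11.2 to 14.8 CPM with topotecan, with PTPRC at 0 to 1 counts and CD8A at 2.39 to 6.81 CPM. The 10 fibroblast markers summed to 34.96 to 44.9 CPM with the combination and 44.1 to 45.2 CPM with topotecan, most of it COL1A1 (237 to 544 counts), with COL1A2 at 0 to 1 counts. The 10 hepatocyte markers summed to 7.61 to 9.11 CPM with the combination and 9.03 to 10.6 CPM with topotecan, with ALB at 0 to 14 counts and CYP2E1 at 45 to 117. Their part in the results was not tested. When every library was reduced to 6.8 M counts, 23966 ± 422 genes were detected with the combination and 24010 ± 412 with topotecan (SD, n = 4; exact permutation test, two-sided, p = 0.971). Levels are relative to the whole library, so less RNA per cell and fewer cells cannot be told apart.

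TDP1 (ENSG00000042088, chromosome 14, 89954939 to 90044768, hg38) was counted in every library. Its level was 24.6, 24.8, 28.9 and 25.6 CPM with the combination and 19.3, 21.8, 17.8 and 20.8 CPM with topotecan. The groups did not overlap, and the log2 difference of 0.38 ± 0.12 did not pass in the fit on all libraries (adjusted p = 0.172, edgeR) but passed when the 20 libraries of F7 were fitted alone (adjusted p = 0.0122, edgeR). Poly(A) counts of a whole gene can persist after an exon is edited, and they are no check of the knockout here. TOP1, the gene of the enzyme that topotecan traps, had 382, 379, 360.4 and 359 CPM with the combination and 378, 378, 388 and 351 CPM with topotecan, overlapping groups with a log2 difference of -0.01 ± 0.12 (adjusted p = 0.998, edgeR). An antisense gene, PLCG1-AS1, overlaps TOP1.

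With OL9-119 added, 175 of 18985 tested genes passed an adjusted p of 0.05 (edgeR quasi-likelihood test), which is 0.922% of them. Of these, 85 were higher (0.448%) and 90 lower (0.474%) with the combination. In each of the 175 genes the 4 combination libraries lay all above or all below the 4 topotecan libraries. Over all genes tested, such a separation was seen in 1272 genes for higher (6.7%) and 1425 for lower (7.51%). Most changes were small: the median size over the 175 was 0.47 on the log2 scale, and 27 genes moved at least 2-fold, 17 higher and 10 lower. Of the 175, 108 were on none of the gene lists used here (47 higher, 61 lower), and 90 overlap a gene on the opposite strand, for which reads cannot be told apart because the strand setting of the counting is not given. Protein-coding genes made up 79 of the 85 and 83 of the 90, and 13 of the 175 were encoded in the mitochondrion (1 higher, 12 lower). The number of calls differed with the libraries fitted: 1214 genes (6.79% of 17890; 545 higher, 3.05%, and 669 lower, 3.74%) passed when the 20 F7 libraries were fitted alone, 174 of the 175 among them. A gene that did not pass in the 60-library fit is thus not shown to be unmoved. Counts of replicates varied 2.31 to 4.95 times as much as counting error allows in these F7 groups, and 3.00 to 31.1 times in the same groups of C6 and 3.19 to 48.04 times in those of G6. With 1 library left out the count was lower in each of the 8 fits. It was 108 without combination replicate 1, 89 without combination replicate 4, 109 without topotecan replicate 1, 49 higher and 54 lower without topotecan replicate 2, and 109 without topotecan replicate 3, and 73 genes passed in all 8 such fits.

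**Figure D1:**
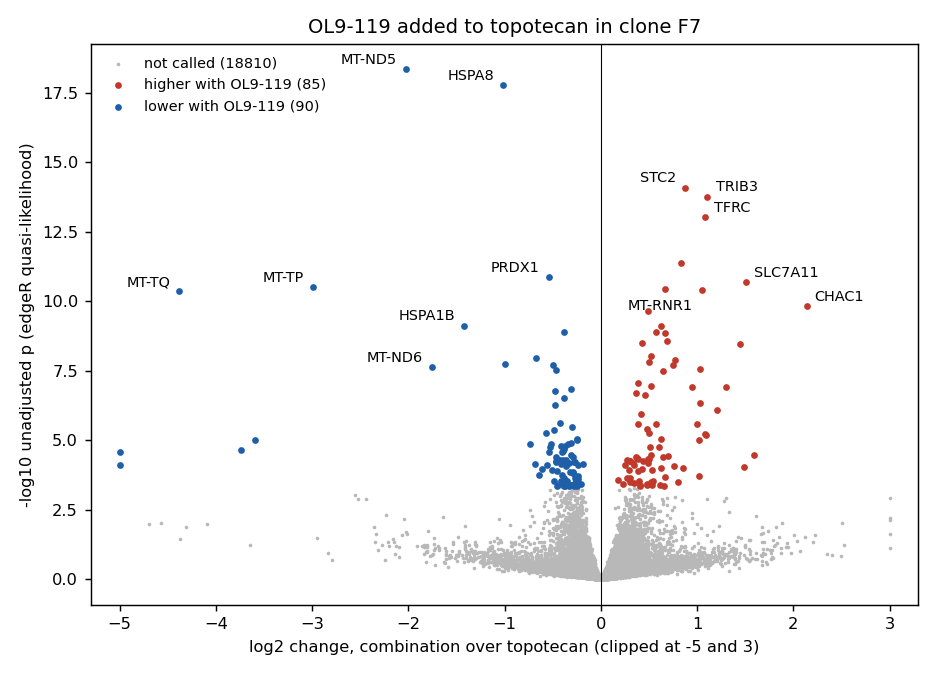
Change with OL9-119 added to topotecan in clone F7 for each of 18985 genes tested. The horizontal axis is the log2 difference, combination minus topotecan, and the vertical axis is -log10 of the unadjusted p (edgeR); differences are drawn no lower than -5 and no higher than 3. Coloured points passed the adjusted threshold of 0.05 (85 higher in red, 90 lower in blue), with CHAC1 farthest right and MT-ND5 and HSPA8 highest on the left.

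Genes of the ATF4 and CHOP programme supplied 15 of the 85 higher genes. Of 29 tested regulators and effectors of this programme 15 rose and none fell (14 did not pass). When the F7 libraries were fitted alone 22 of the 29 were higher and 2 lower. The median log2 difference over the list was 0.52 against -0.00 over all genes tested. Many of these genes were known to move from an earlier look at these data, so the list is a description. CHAC1 encodes an enzyme that breaks down glutathione and is a classic target of ATF4 and CHOP. It had 34.7, 29.1, 32.4 and 37.9 CPM with the combination, against 7.50, 6.28, 6.16 and 9.97 CPM with topotecan. The groups lay far apart, with a fitted difference of 4.42-fold (log2 2.14 ± 0.27, adjusted p = 2.20e-07, edgeR). TRIB3, a pseudokinase that restrains ATF4 and AKT signalling, had 151, 141, 146 and 134 CPM with the combination and 65.0, 67.5, 61.9 and 72.5 CPM with topotecan (log2 1.10 ± 0.11, adjusted p = 8.43e-11, edgeR). DDIT4, a stress-induced inhibitor of mTORC1, stood at 152, 159, 148 and 156 CPM in combination cells and 58.6, 73.0, 56.6 and 61.0 CPM in topotecan cells (log2 1.30 ± 0.21, adjusted p = 6.39e-05, edgeR). For both genes the lowest combination library stood well above the highest topotecan library.

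The promoters of called members of this list were searched for TGATGNAA, letters of the C/EBP-ATF response element through which ATF4 acts with C/EBP partners. The search covered both strands of the 250 bases before the RefSeq start (GRCh38.p14). The letters were found in 4 of the 13 called members that had a promoter entry (CHAC1, CEBPG, ATF3 and JDP2), and in 1061 of 27305 promoters overall (3.89%). They were also in 1 of 5 called members, with an entry, of the list of serine, asparagine, proline, cysteine and one-carbon enzymes (ASNS) and in 0 of 3 called amino acid transporters. A match is a description of letters, not a site shown to act here. The matches of CHAC1, of the C/EBP gene CEBPG, of the stress-induced factor gene ATF3 and of the asparagine synthetase gene ASNS are printed with some flanking sequence in the direction of the gene, with the matching letters in capitals; in CHAC1 the capitals read as the motif on the opposite strand.
CHAC1 (chr15:40953251-40953280, plus strand): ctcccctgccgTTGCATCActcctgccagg
CEBPG (chr19:33374026-33374112, plus strand): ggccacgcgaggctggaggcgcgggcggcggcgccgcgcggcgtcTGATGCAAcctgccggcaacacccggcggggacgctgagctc
ATF3 (chr1:212565171-212565268, plus strand): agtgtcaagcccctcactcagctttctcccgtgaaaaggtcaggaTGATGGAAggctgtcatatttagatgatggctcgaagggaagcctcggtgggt
ASNS (chr7:97872458-97872487, minus strand): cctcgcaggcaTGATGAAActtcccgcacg

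ATF4 itself and its partner CHOP were named for their role after their values were seen. ATF4 had 527, 524, 509.7 and 512 CPM with the combination and 414, 423, 471 and 429 CPM with topotecan. The groups did not overlap and the rise was small (log2 0.26 ± 0.06, adjusted p = 0.0134, edgeR); it passed in 3 of the 8 fits that leave out 1 library, with an adjusted p of up to 0.0964 (without topotecan replicate 1). DDIT3, the CHOP gene, had 122.9, 119, 119 and 121.4 CPM with the combination and 65.8, 73.7, 79.7 and 63.7 CPM with topotecan (log2 0.77 ± 0.12, adjusted p = 9.84e-06, edgeR). Among the C/EBP and ATF factors that pair with them, CEBPB rose by a log2 difference of 0.95 ± 0.16, JDP2 by 1.08 ± 0.22, CEBPG by 0.57 ± 0.08 and ATF3 by 0.38 ± 0.06. The secreted effectors GDF15, a stress hormone (49.6 ± 4.95 CPM with the combination against 24.4 ± 0.352 with topotecan, SD, n = 4), STC2, a stanniocalcin (198 ± 5.77 against 108 ± 2.35), and VEGFA, an angiogenic growth factor (140.2 ± 8.17 against 97.6 ± 5.999), also rose. The call of VEGFA was lost without combination replicate 4 (adjusted p = 0.0521, edgeR). The rise of SESN2, which relays amino acid shortage to mTORC1 (log2 0.53 ± 0.13), passed in 2 of those 8 fits (adjusted p of up to 0.12, without combination replicate 4). The translation inhibitor gene EIF4EBP1 (log2 0.60 ± 0.13) and the lipoprotein receptor gene VLDLR (0.69 ± 0.10) completed the 15. Among members that did not pass, NUPR1, a stress-induced chromatin protein, had a log2 difference of 0.69 (adjusted p = 0.142, edgeR), PPP1R15A, which restores translation, 0.23, and ATF5, a relative of ATF4, -0.34.

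The sensors upstream of ATF4 showed no call. None of 15 tested sensor genes passed, with a median of 0.01 and a range of -0.14 to 0.30 on the log2 scale. The kinase genes EIF2AK1, EIF2AK3 and EIF2AK4, which sense haem or mitochondrial stress, misfolded protein and uncharged tRNA, had log2 differences of 0.09, 0.16 and 0.02. EIF2AK2, the kinase that senses double-stranded RNA, had -0.02. OMA1 and DELE1, which carry mitochondrial stress to EIF2AK1, had 0.30 and 0.12. Kinase activity is not read by these counts.

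The genes that supply amino acids moved in part. SLC7A11, the cystine importer, had 57.2, 61.2, 47.3 and 51.8 CPM with the combination and 24.2, 18.2, 17.5 and 16.4 CPM with topotecan. The groups were far apart, with a fitted difference of 2.85-fold (log2 1.51 ± 0.18, adjusted p = 4.94e-08, edgeR). SLC6A9, a glycine transporter, had 18.5, 18.7, 19.96 and 16.1 CPM with the combination and 7.07, 8.28, 5.88 and 5.52 CPM with topotecan (log2 1.44 ± 0.21, adjusted p = 2.87e-06, edgeR). The arginine importer gene SLC7A1 (log2 0.42 ± 0.08) and the glutamine transporter gene SLC38A2 (0.49 ± 0.11) were the other 2 of 4 amino acid transporters that rose of 23 tested. None of the 23 fell, and the median of the list was -0.04, close to that of all genes. When the F7 libraries were fitted alone 8 of the 23 were higher and 1 lower. SLC38A2 lost its call without combination replicate 1 (adjusted p = 0.0564, edgeR). SLC7A5 and SLC3A2, the chains of the large neutral amino acid exchanger, had 0.25 and 0.12 and did not pass.

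Of 25 enzymes of serine, asparagine, proline, cysteine and one-carbon metabolism 8 rose and none fell (median 0.21). When the F7 libraries were fitted alone 12 of 24 tested were higher and 1 lower. PSAT1, which makes phosphoserine, had 154, 163, 157 and 156 CPM with the combination and 94.2, 84.3, 88.3 and 87.6 CPM with topotecan (log2 0.83 ± 0.09, adjusted p = 1.30e-08, edgeR). CTH, which makes cysteine from cystathionine, had 28.2, 24.8, 28.8 and 23.3 CPM with the combination and 14.7, 10.2, 13.5 and 13.2 CPM with topotecan (log2 1.03 ± 0.18, adjusted p = 0.000195, edgeR). In both genes every combination library stood clear of the topotecan libraries. The mitochondrial folate enzyme gene ALDH1L2 (log2 1.21 ± 0.22), PCK2, mitochondrial PEP carboxykinase (1.03 ± 0.16), the alanine aminotransferase gene GPT2 (0.63 ± 0.13), the phosphoserine phosphatase gene PSPH (0.65 ± 0.14) and the one-carbon gene MTHFD2 (0.38 ± 0.09) rose as well. ASNS, asparagine synthetase, was low at 3.69, 5.90, 4.32 and 6.94 CPM with the combination and 2.04, 1.14, 2.29 and 2.07 CPM with topotecan, groups that did not overlap (log2 1.49 ± 0.35, adjusted p = 0.0146, edgeR). Leaving out 1 library ended some of these calls. Without combination replicate 2, combination replicate 4 or topotecan replicate 2 the adjusted p of ASNS was 0.0674, 0.109 and 0.13 (edgeR). That of PSPH was 0.0589 without combination replicate 4, and 0.0629 and 0.0508 without topotecan replicates 2 and 4. That of MTHFD2 was 0.0622 and 0.0633 without combination and topotecan replicate 2. PHGDH, the first step of serine synthesis, and SHMT2, a mitochondrial serine hydroxymethyltransferase, had log2 differences of 0.36 and 0.22 and did not pass.

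Cytosolic aminoacyl-tRNA synthetases, which load amino acids onto tRNAs, followed in the same direction: 5 of 22 rose, none fell, and the median was 0.19. The 5 were GARS1 (log2 0.52 ± 0.08), CARS1 (0.50 ± 0.08), AARS1 (0.46 ± 0.08), YARS1 (0.43 ± 0.06) and SARS1 (0.36 ± 0.06), for glycine, cysteine, alanine, tyrosine and serine. When only F7 libraries were fitted, 11 of the 22 rose and none fell.

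Of the unfolded protein response of the endoplasmic reticulum, 2 of 30 genes rose and none fell, with a median of 0.00. They were XBP1, a transcription factor of this response (301 ± 11.1 CPM with the combination against 189 ± 7.25 CPM with topotecan, SD, n = 4; log2 0.67 ± 0.08), and HERPUD1, which serves protein degradation at that membrane (log2 0.62 ± 0.08). HSPA5, the main chaperone of that compartment, had 1144, 1245, 1173 and 1162 CPM with the combination and 1083, 1105, 1117 and 1098 CPM with topotecan. These groups differed by a log2 of 0.10 ± 0.06 and did not pass (adjusted p = 0.904, edgeR). DNAJB9, a co-chaperone and target of XBP1, had a log2 difference of 0.10 and did not pass. When the F7 libraries were fitted alone 3 of the 30 genes were higher and 1 lower.

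TFRC, the transferrin receptor that imports iron, had 373, 371, 371 and 347 CPM with the combination and 178, 171, 168 and 175 CPM with topotecan. The level with the combination was 2.12-fold that with topotecan, with narrow groups (log2 1.08 ± 0.11, adjusted p = 3.67e-10, edgeR). The other genes among the 15 highest were CALCB, a calcitonin-family neuropeptide gene (log2 1.09 ± 0.22), and C11orf96 (1.00 ± 0.19), for which no role is given here. Outside the list of ATF4 genes but named after values were seen, INHBE, which encodes an inhibin chain, had 2.71, 5.90, 3.19 and 3.64 CPM with the combination and 1.53, 1.27, 0.86 and 1.38 CPM with topotecan (log2 1.59 ± 0.35); its call was lost without combination replicate 2 (adjusted p = 0.13, edgeR).

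**Figure D2:**
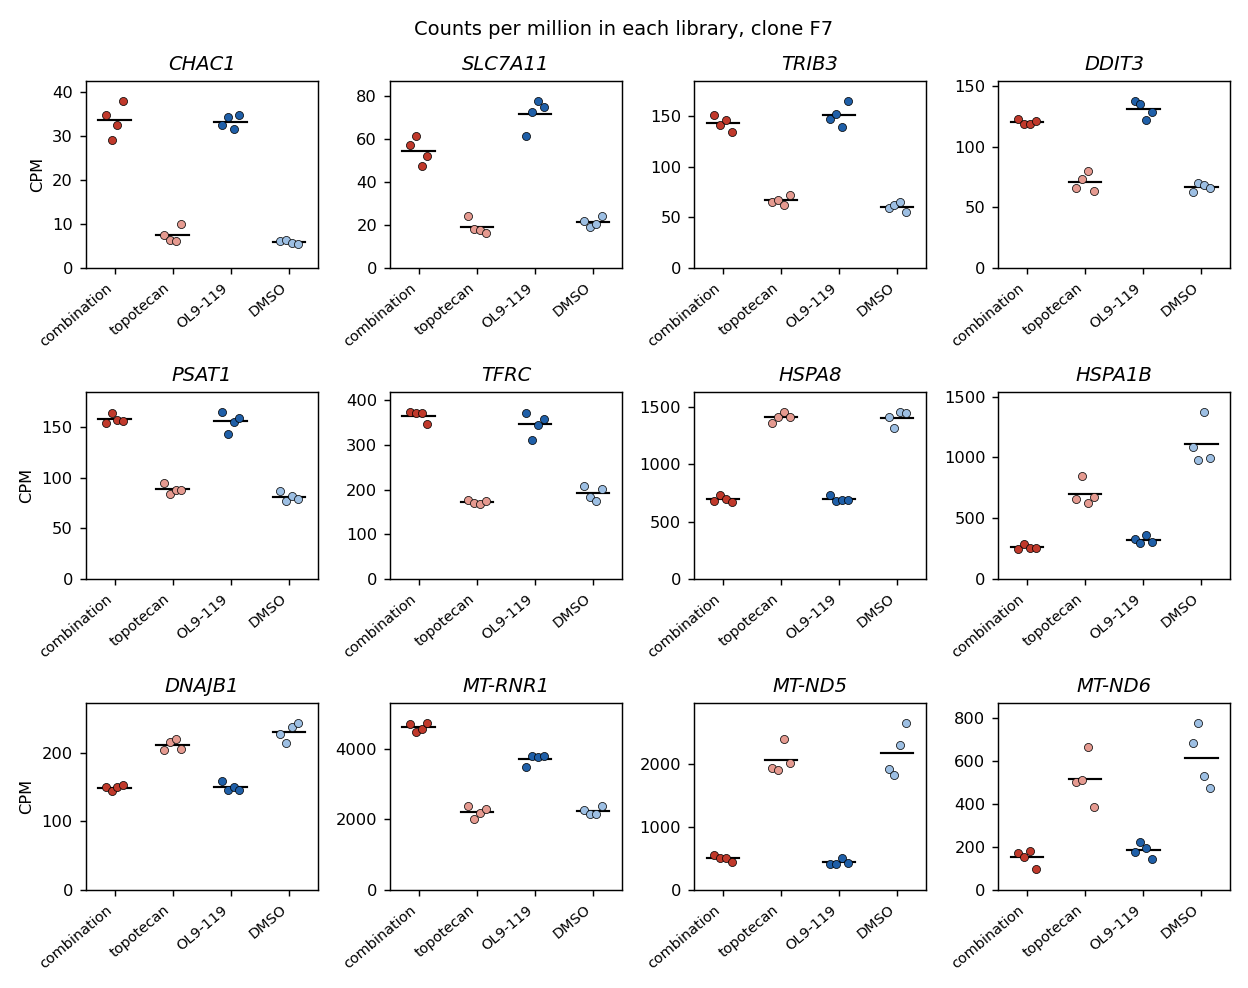
Levels of genes that moved with OL9-119 added to topotecan in clone F7. Each point is 1 library and the vertical axis is CPM from 0 on a linear scale, with the combination left of topotecan and, to their right, OL9-119 alone left of DMSO (4 libraries each); lines are group means. The combination libraries of CHAC1 and SLC7A11 lie above, and those of HSPA8 and MT-ND5 below, every topotecan library.

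On the lower side, some cytosolic chaperones of the heat shock response fell. Of 34 tested, 5 fell and none rose (29 did not pass), with a median of -0.17. As a list they were no lower than cytosolic ribosomal proteins (median -0.18) or nuclear respiratory chain genes (-0.21), both described below. HSPA8, the constitutive HSP70, had 683, 736, 703 and 672 CPM with the combination, against 1360.4, 1413, 1455 and 1417 CPM with topotecan. The groups lay far apart, and the combination level was 2.02-fold lower (log2 -1.02 ± 0.08, adjusted p = 1.61e-14, edgeR). HSPA1B, an inducible HSP70, had 250.1, 289, 256 and 253 CPM with the combination and 658, 849, 625 and 676 CPM with topotecan (log2 -1.42 ± 0.19, adjusted p = 9.39e-07, edgeR). HSPA1A, a near-identical copy, was counted at 2.16 to 3.29 CPM with the combination and 3.70 to 4.94 CPM with topotecan and did not pass. Reads that fit both copies may be assigned to either, so the split between HSPA1B and HSPA1A is uncertain. DNAJB1, an HSP40 that hands clients to HSP70, had 149, 145, 149.9 and 153 CPM with the combination and 204, 215, 219.7 and 205 CPM with topotecan, groups that did not overlap (log2 -0.50 ± 0.08, adjusted p = 1.34e-05, edgeR). DNAJA1, another HSP40 (log2 -0.40 ± 0.10), and HSP90AB1, the constitutive HSP90 (-0.24 ± 0.05), fell less; DNAJA1 passed in 2 of the 8 fits that leave out 1 library (adjusted p of up to 0.0967, without combination replicate 4). HSP90AA1, the inducible HSP90, HSPH1, an HSP110, and HSF1 had log2 differences of -0.14, -0.33 and 0.02 and did not pass. The count rose to 15 lower and none higher when F7 libraries were fitted alone.

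Mitochondrial chaperones and proteases moved less as a list, with 1 of 16 lower and a median of 0.03. The 1 was HSPE1, the HSP10 of the mitochondrial chaperonin (log2 -0.69 ± 0.16), which passed in 4 of the 8 fits that leave out 1 library (adjusted p of up to 0.137, without combination replicate 4). Its partner HSPD1 and the mitochondrial HSP70 gene HSPA9 had -0.17 and 0.17 and did not pass. None of 14 subunits of the cytosolic CCT chaperonin and prefoldin passed (median -0.11). All 14 had negative differences, and 4 were lower and none higher when the F7 libraries were fitted alone, where 3.74% of all genes were lower.

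Promoters of the called chaperones were searched for GAANNTTC, an inverted pair of the units that HSF1 recognises, over the same window and on both strands, where the letters read alike. All 5 called members held the letters (HSPA8, HSPA1B, DNAJB1, HSP90AB1 and DNAJA1), and 1924 of 27305 promoters did overall (7.05%). These are long-known heat shock genes, so the letters describe the group and say nothing of HSF1 in these cells. The 3 with the smallest p are printed with the letters in capitals, from RefSeq (GRCh38.p14).
HSPA8 (chr11:123062348-123062377, minus strand): ggggcgagcttGAAAGTTCcagaacgctgc
HSPA1B (chr6:31827588-31827685, plus strand): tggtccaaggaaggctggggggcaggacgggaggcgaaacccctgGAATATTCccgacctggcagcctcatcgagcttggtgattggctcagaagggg
DNAJB1 (chr19:14518422-14518519, minus strand): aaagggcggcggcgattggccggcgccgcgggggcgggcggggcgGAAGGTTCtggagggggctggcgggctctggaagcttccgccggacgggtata

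Mitochondrially encoded transcripts changed unevenly along their genome, with falls and a rise side by side. Of 37 mitochondrial genes 24 passed the filter on low counts; of these 1 rose and 12 fell. MT-ND5, which encodes a core subunit of complex I, had 561, 506, 518 and 451 CPM with the combination, against 1944, 1906, 2397 and 2015 CPM with topotecan. Every combination library lay far below every topotecan library, 4.06-fold lower in the fit (log2 -2.02 ± 0.15, adjusted p = 8.84e-15, edgeR). MT-ND6, the complex I subunit gene that lies alone among the mRNAs on the opposite strand, had 173, 153, 182 and 100.1 CPM with the combination and 499.9, 509, 665 and 386 CPM with topotecan. These groups were well apart too (log2 -1.76 ± 0.27, adjusted p = 1.49e-05, edgeR). MT-ND5 and MT-ND6 lie end to end on opposite strands, and since the strand setting of the counting is not given, reads from the other strand of either gene cannot be told apart. MT-RNR1, the small ribosomal RNA, went the other way, with 4692, 4457, 4559.6 and 4715 CPM with the combination and 2367, 2023, 2188 and 2303 CPM with topotecan (log2 1.05 ± 0.13, adjusted p = 6.97e-08, edgeR).

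MT-RNR2, the large ribosomal RNA that lies next to MT-RNR1 on the same strand, had 13183, 12556, 12184 and 11739.7 CPM with the combination and 12639, 10814, 12129 and 11775 CPM with topotecan. Its groups differed by a log2 of 0.07 ± 0.13 and did not pass. The counts of MT-RNR1 over those of MT-RNR2 gave a ratio of 0.372 ± 0.0219 with the combination and 0.188 ± 0.00623 with topotecan (SD, n = 4). The ratio was higher in every combination library than in every topotecan library; it was formed after the values of both genes were seen, so it is a description with no test. Poly(A) selection takes up these RNAs only in part, and whether the change lies in their amount or in their poly(A) tails was not tested.

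Of 13 mitochondrial mRNAs 6 fell, none rose and the median was -0.46. Besides MT-ND5 and MT-ND6 they were MT-ND3 of complex I (log2 -0.99 ± 0.15) and the cytochrome c oxidase genes MT-CO2 (-0.67 ± 0.10), MT-CO3 (-0.57 ± 0.11) and MT-CO1 (-0.47 ± 0.11). MT-CO1 lost its call without topotecan replicate 3 (adjusted p = 0.11, edgeR). The 7 that did not pass had log2 differences of -0.02 (MT-ND1), -0.18 (MT-ND2), -0.46 (MT-ND4), -0.45 (MT-ND4L), -0.45 (MT-CYB), -0.32 (MT-ATP6) and -0.42 (MT-ATP8). The difference of MT-ND1 changed its sign without topotecan replicate 3.

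Transfer RNA genes were counted at low levels, and 6 of the 11 rRNA and tRNA genes tested fell. MT-TQ, the glutamine tRNA, had 0.217, 0.343, 0.617 and 0.228 CPM with the combination and 8.09, 7.75, 8.89 and 5.77 CPM with topotecan (log2 -4.38 ± 0.54, adjusted p = 7.08e-08, edgeR). MT-TP, the proline tRNA, had 1.63, 1.30, 2.16 and 0.683 CPM with the combination and 14.1, 11.95, 10.3 and 9.85 CPM with topotecan (log2 -2.99 ± 0.36, adjusted p = 6.63e-08, edgeR). Both fell beyond any overlap, and both lie on the minus strand as GENCODE gives it. MT-TY had 0 counts in the 4 combination libraries and 34 in the 4 topotecan libraries, at least 9.66-fold lower when 3 counts over the combination libraries are taken as the floor. MT-TE had 1 count with the combination and 61 with topotecan, a level 52.0-fold lower (95% interval 9.33 to 2054, counting error only). MT-TA and MT-TT also fell, at 0.101 ± 0.0955 and 0.108 ± 0.0887 CPM with the combination against 1.31 ± 0.527 and 1.45 ± 0.41 CPM with topotecan (SD, n = 4). MT-TT lost its call without combination replicate 2 (adjusted p = 0.0605, edgeR), and MT-TY passed in 3 of the 8 fits that leave out 1 library (adjusted p of up to 0.0683, without combination replicate 2). Poly(A) libraries hold few mature tRNAs, so these counts may come from unprocessed precursors, which was not tested.

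By annotated strand, 6 of the 7 tested minus-strand genes fell, with a median of -3.60, and on the plus strand 6 of 17 fell and 1 rose, with a median of -0.45. Summed per library, minus-strand genes took 0.402, 0.392, 0.448 and 0.255% of the mitochondrial counts with the combination, against 1.10, 1.21, 1.24 and 0.853% with topotecan. MT-ND6 alone made up 98.2 to 98.8% of these minus-strand counts with the combination and 94.9 to 96.5% with topotecan. The difference of means was -0.727 percentage points (exact permutation test, two-sided, p = 0.0286, the smallest possible). As a share of protein-coding counts only, where MT-ND6 is the only minus-strand gene, it was -0.851 points (p = 0.0286, same exact test). The other minus-strand genes, all tRNAs, held 11 to 35 counts a library with the combination and 166 to 356 with topotecan. The share of all counts that was mitochondrial was 4.38 ± 0.19% with the combination and 5.04 ± 0.46% with topotecan (SD, n = 4; p = 0.0571, exact permutation test). Without the 2 rRNA genes it was 2.57 ± 0.14% with the combination and 3.58 ± 0.43% with topotecan (p = 0.0286, same exact test). With OL9-119 alone the minus-strand share was 0.5003, 0.634, 0.498 and 0.397%, against 1.54, 1.67, 1.03 and 0.864% with DMSO, so a lower share was measured without topotecan too. None of 33 nuclear genes of mitochondrial DNA and RNA handling passed (median 0.01), among them POLRMT, the mitochondrial RNA polymerase, at a log2 difference of 0.12.

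**Figure D3:**
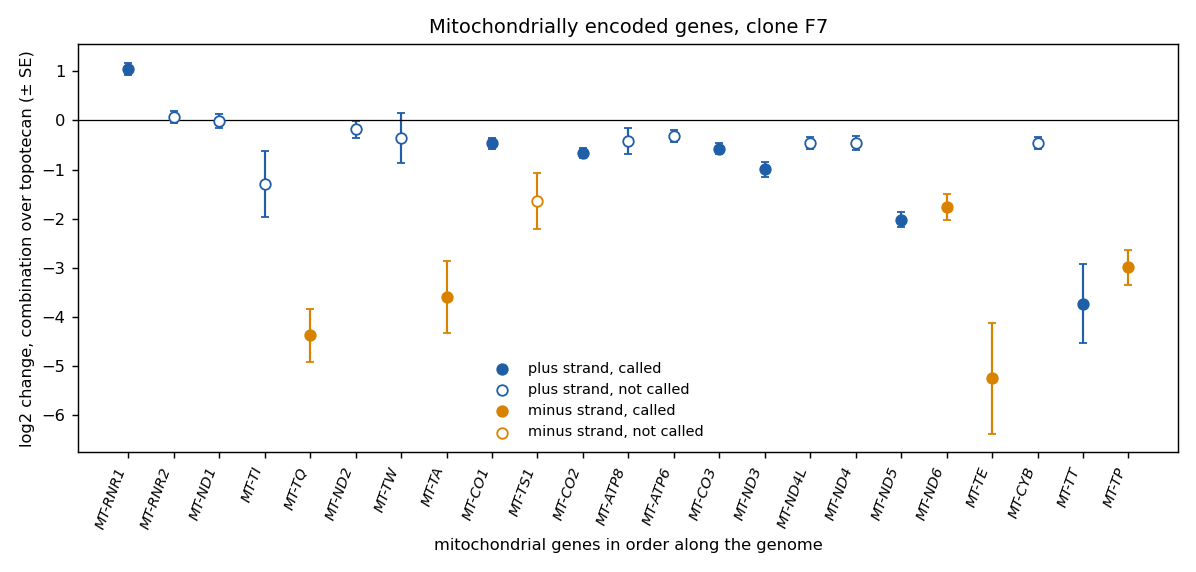
Mitochondrially encoded genes in clone F7, combination minus topotecan. Each point is 1 gene that passed the filter, placed in genome order on the horizontal axis and by its log2 difference with 1 SE on the vertical axis, coloured by annotated strand, filled where called; MT-TY, at 0 counts with the combination, is not drawn. MT-RNR1 lies at 1.05 while MT-RNR2 next to it lies at 0.07, and called minus-strand genes lie between -1.76 and -5.25.

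Of 35 nuclear genes of the respiratory chain 3 fell and none rose, with a median log2 difference of -0.21; with the F7 libraries fitted alone 11 fell and none rose. The 3 were NDUFA4, a cytochrome c oxidase subunit (82.9 ± 4.90 CPM with the combination against 115 ± 9.49 CPM with topotecan, SD, n = 4; log2 -0.47 ± 0.08), COX7A2 (-0.42 ± 0.09) and COX5A (-0.29 ± 0.07) of the same complex. COX7A2 lost its call without combination replicate 4 (adjusted p = 0.0553, edgeR). COX5A passed in 2 of the 8 fits that leave out 1 library (adjusted p of up to 0.12, without combination replicate 4). Of 38 cytosolic ribosomal protein genes 1 fell, RPL7A (log2 -0.31 ± 0.07), and none rose; all 38 had negative differences (median -0.18, range -0.34 to -0.04), and 16 fell when the F7 libraries were fitted alone. None of 35 mitochondrial ribosomal protein genes passed (median -0.08). Other genes among the 15 lowest were NEDD8, a ubiquitin-like modifier (log2 -0.64 ± 0.16), COA3, an assembly factor of cytochrome c oxidase (-0.61 ± 0.15), ATP5MJ, a small ATP synthase subunit (-0.54 ± 0.12), PRDX1, a peroxiredoxin (-0.54 ± 0.06), and ACTG1, a cytoplasmic actin (-0.56 ± 0.13). NEDD8 passed in 1 of the 8 fits that leave out 1 library (adjusted p of up to 0.176, without combination replicate 2), COA3 in 3 (up to 0.0988, without combination replicate 3) and ACTG1 in 4 (up to 0.0577).

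Many of these lower genes are short, and the difference went along with gene length over all genes. The median log2 difference was -0.08 over 2857 genes spanning under 10 kb, -0.03 over 4071 genes of 10 to 30 kb, 0.02 over 4774 genes of 30 to 100 kb, 0.05 over 1807 genes of 100 to 200 kb and 0.05 over 1176 genes over 200 kb. Called genes split 16 higher and 30 lower in the shortest class, then 20 and 35, 33 and 15, and 2 and 3 in the next, and 8 higher and 0 lower in the longest. The median span was 32.95 kb for called higher genes, 13.3 kb for called lower genes and 24.9 kb for genes tested. Spearman's rho with log10 span was 0.198 across 14685 genes of the same libraries, a description since genes are not independent replicates. In C6 and G6 rho of the same comparison with log10 span was 0.165 and 0.221. With OL9-119 alone in F7 the medians of the same classes were -0.06, -0.02, 0.02, 0.02 and 0.04. Topotecan against DMSO in F7 went the other way, with medians of 0.07, 0.07, 0.01, -0.13 and -0.32. That comparison shares the topotecan libraries, and their part in the trend with length was not tested. TMM factors were 1.06 to 1.08 with the combination and 1.02 to 1.04 with topotecan, without overlap. The part of library composition in these small shifts was not tested.

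The remaining lists held few calls. In 21 of the 40 lists no member passed; their medians were -0.38 to 0.16, and when the F7 libraries were fitted alone 19 of their 436 tested entries were higher and 31 lower (11.5% in all, against 6.79% of all genes in that fit). None of 29 tested genes of the pathway and targets of NF-kB, a factor of inflammatory genes, passed (median 0.16). Of the 29, 24 had positive differences, against 9486 of all 18985 genes tested. When the F7 libraries were fitted alone 3 of the 29 were higher and none lower. CXCL8, the interleukin-8 gene, had 65.9, 64.2, 65.4 and 66.8 CPM with the combination and 55.1, 54.5, 55.0 and 64.4 CPM with topotecan. The groups overlapped and the log2 difference of 0.19 ± 0.22 did not pass, nor did TNFAIP3 (0.20), BIRC3 (0.56) or CXCL2 (0.94). None of 29 genes of topoisomerase 1 lesion and single-strand break repair (median 0.06), 27 of homologous recombination and the Fanconi pathway (0.09) or 30 of G2/M (0.02) passed. In the fit on F7 libraries alone 4 of these 29 were higher and 1 lower, against 3.05% and 3.74% of all genes. In that fit 1 of the 27 and 1 of the 30 were higher and none lower. Of 30 p53 targets SESN2 rose and RPS27L, a ribosomal protein paralogue, fell (log2 -0.35 ± 0.09), while CDKN1A, the p21 gene, had -0.20 and did not pass. Of 34 G1/S genes GINS2, a replication helicase subunit, fell (log2 -0.39 ± 0.10). RPS27L and GINS2 passed in 2 of the 8 fits that leave out 1 library, with adjusted p of up to 0.211 (without topotecan replicate 3) and 0.148 (without combination replicate 1).

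Single members moved in several other lists. CYP1B1, a target of the aryl hydrocarbon receptor, fell to 13.9, 13.6, 14.9 and 14.8 CPM with the combination, against 24.5, 24.6, 23.8 and 22.3 CPM with topotecan (log2 -0.74 ± 0.15, adjusted p = 0.00404, edgeR), 1 of 10 genes of that pathway. In the NRF2 and thiol list of 28, CHAC1 and SLC7A11 rose and PRDX1 and TXNRD1, thioredoxin reductase, fell. CHAC1 and SLC7A11 are also on the amino acid and ATF4 lists. Of 34 immediate early genes, ATF3 and KLF6 rose (log2 0.30 ± 0.08 for KLF6) and CCN1, also a YAP target, fell (-0.47 ± 0.11). Of 34 genes of glycolysis and hypoxia, VEGFA rose and PGAM1, a glycolytic mutase, fell (-0.40 ± 0.09). Of 20 small nucleolar RNA host genes, SNHG1 (0.53 ± 0.08) and GAS5 (0.33 ± 0.08) rose, both short-lived transcripts. Leaving out 1 library ended the call of KLF6 in all 8 fits (adjusted p of up to 0.154, without combination replicate 4), of TXNRD1 in 6 (up to 0.138, without combination replicate 1) and of GAS5 in 4 (up to 0.0987, without topotecan replicate 4). It ended that of CCN1 without combination replicate 4 (0.0828) or topotecan replicate 3 (0.0577), and that of PGAM1 without combination replicate 1 (0.0571). In all, 21 of the 40 lists held no called gene among 438 tested entries.

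**Figure D4:**
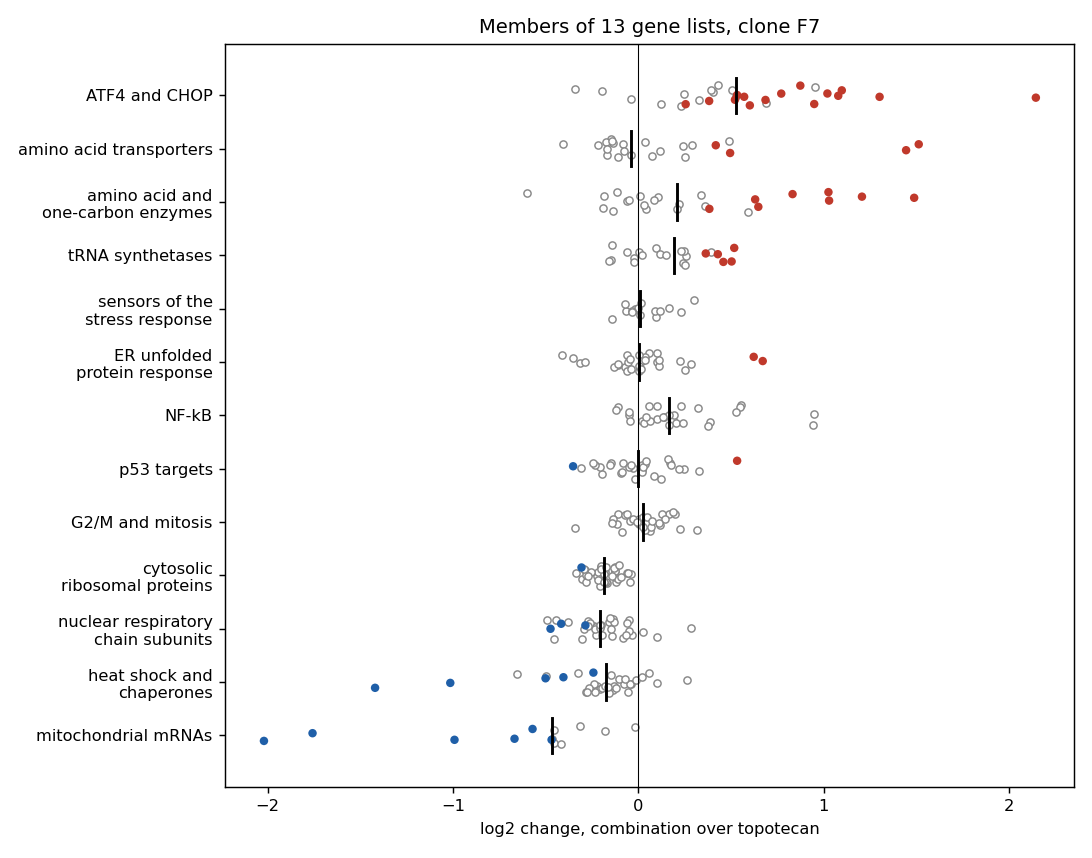
Gene lists in clone F7, combination minus topotecan. Each row is 1 of 13 lists, each point a tested member placed by its log2 difference on the horizontal axis (red called higher, blue called lower, open not called), and each black line the median. Of the lists drawn, that of ATF4 and CHOP has the highest median (0.52) and that of mitochondrial mRNAs the lowest (-0.46).

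Whether the change with OL9-119 depended on topotecan was tested as an interaction, the change with topotecan present minus the change without it. None of 18985 genes passed (0%; smallest adjusted p = 1.0, edgeR), 95 had an unadjusted p under 0.05, and DESeq2 gave none. With no filter on low counts 1 gene passed. For CHAC1 the interaction was -0.34 (95% interval -1.08 to 0.41) on the log2 scale, for HSPA8 -0.01 (-0.22 to 0.21), for SLC7A11 -0.24 (-0.73 to 0.25), for MT-ND5 0.28 (-0.12 to 0.68) and for MT-RNR1 0.32 (-0.03 to 0.68). Each of these intervals includes 0, and a dependence on topotecan of a size within them was not detectable. Other called genes, picked here for a small interaction p, had intervals that leave out 0. They were ATF3 at -0.24 (-0.41 to -0.06) and WWC3 at 0.53 (0.15 to 0.91). These intervals are not adjusted for the number of genes, and neither gene passed.

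The change with OL9-119 alone, taken from 8 other libraries, ran alongside. In that comparison 200 genes passed, 1.05% of 18985, of which 0.643% were higher and 0.411% lower with OL9-119. Of the 175 genes called with topotecan present, 174 had the same sign (WWC3, a gene of the Hippo pathway, did not), while 68.4% of all genes tested did. Of the 175, 114 (65.1%) were called in both, 68 higher and 46 lower, which is 57.0% of the 200. The median log2 over the 85 higher genes was 0.53 with topotecan present and 0.56 without, and over the 90 lower genes -0.39 and -0.32. Over the 9331 genes whose log2 CPM averaged 4 or more, Pearson's r between these comparisons was 0.796, across genes and as a description. Over all 18985 genes tested, which include those at lower counts, Pearson's r was 0.290. CHAC1 had 32.5, 34.3, 31.5 and 34.8 CPM with OL9-119 alone and 6.21, 6.27, 5.68 and 5.52 CPM with DMSO, close to the levels with and without the compound under topotecan. HSPA8 had 734, 683, 693 and 689 CPM with OL9-119 alone and 1415, 1317, 1453 and 1448 CPM with DMSO. HSPA1B had 332, 298, 363 and 308 CPM with OL9-119 alone and 1089.8, 982, 1373 and 995 CPM with DMSO, both above the levels under topotecan.

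**Figure D5:**
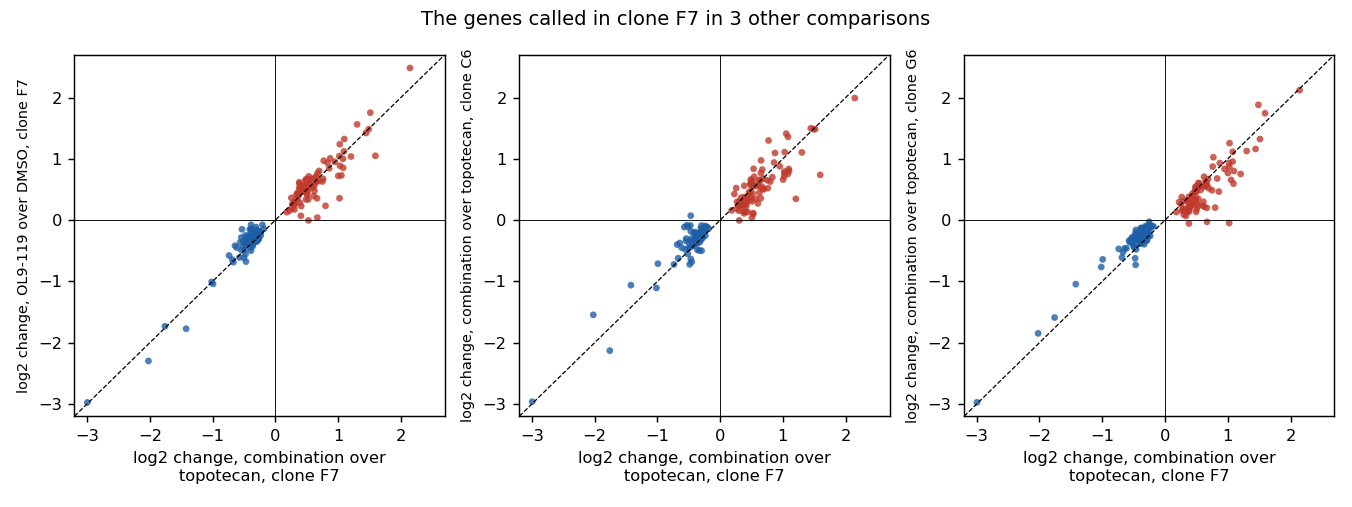
Genes called for OL9-119 added to topotecan in clone F7, set against 3 comparisons of other libraries. Each point is 1 called gene (5 mitochondrial tRNA genes at very low counts are not drawn); the horizontal axis is its log2 difference in F7 and the vertical axis its log2 difference with OL9-119 alone in F7, or with OL9-119 added to topotecan in C6 or G6, with a dashed line of equality. Nearly all points lie in the quadrants of equal sign (174, 173 and 172 of 175).

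In the other clones most of the 175 genes had a difference of the same sign, though not most of them passed. Their libraries were less even: 17480 to 24932 genes were detected per library in the combination and topotecan groups of C6 and 19670 to 27402 in those of G6, against 24042 to 26120 in F7. Adding OL9-119 to topotecan called 310 genes in C6 (1.63%), 167 higher (0.88%) and 143 lower (0.753%). In G6 it called 66 higher (0.348%) and 37 lower (0.195%), 0.543% in all. Of the 175 genes of F7, 173 had the same sign in C6 (all but PARD3 and MT-CO1) and 172 in G6 (all but ATF3, LINC01881 and CBLB), while 65.9 and 64.8% of all genes tested did. In C6 85 of the 175 were also called (27.4% of its 310) and in G6 76 (73.8% of its calls). No gene passed the test of F7 against the mean of C6 and G6 (0%; smallest adjusted p = 0.371, edgeR), while 307 had an unadjusted p under 0.05, DESeq2 called 1 gene, and 2 passed with no filter. The smallest p belonged to ATF3, with log2 differences of 0.38 in F7, 0.11 in C6 and -0.05 in G6. CHAC1 differed by 2.14 in F7, 1.99 in C6 and 2.12 in G6, HSPA8 by -1.02, -1.11 and -0.77, and MT-ND5 by -2.02, -1.55 and -1.85, in the same order of clones. None of these changes was shown to be particular to F7.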

How the data were processed

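RNA-seq libraries of 3 TDP1-targeted HEK293A clones (60 libraries, 15 groups of 4) were used, and the comparison rests on 8 of them. The authors deposited raw counts, whole numbers for each gene in each library. Per the submitters' processing notes, STAR 2.7.8, Picard 2.26.6 and FastQC 0.11.9 were used with the build hg38. How counts were assigned (tool, annotation, strand) is not given in the sources used here. Per the labels' protocols, Trizol RNA was enriched for poly(A) and made into libraries with a directional kit.

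Of 58395 gene identifiers, 58275 were found in GENCODE 29, which gave positions and strands, and 57754 had a current symbol. Genes past filterByExpr over the 15 groups (18985) were tested with edgeR 4.0.16 in R 4.3.3 (quasi-likelihood F test, two-sided, TMM scaling), with 1 mean per group over all 60 libraries. Adjusted p are Benjamini-Hochberg values over all genes tested, with a threshold of 0.05; list members were not adjusted separately. Errors given with ± are standard errors for log2 differences and standard deviations for levels. CPM were taken with TMM library sizes. Shares per library were compared with an exact permutation test. Alternatives were DESeq2 1.42.0 (as test or as size factors), other filters, a robust spread, a replicate block, fits on fewer libraries and leaving out each library.

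The labels call the replicates biological and say no more, so p-values measure the spread between these libraries. The labels do not say what libraries of the same replicate number share, so the numbers were not taken as pairs in the main fit. Column names of replicates 1 to 4 carry the undefined prefixes L01, L02, L03 and L03 in both groups alike.

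The comparison and the 40 gene lists were chosen with earlier results of these data known. Genes named were TDP1, TOP1, the 15 highest and 15 lowest changes past the threshold with non-overlapping groups and a mean log2 CPM of at least 2, up to 4 called members of each list, members described by role, and the mitochondrial genes; others are said to be chosen after their values were seen. Further called list members are named where a count is spelled out. The interval of MT-TE and the floor of MT-TY cover counting error only. The intervals of the interaction rest on the standard errors of the edgeR fit, which include the spread between replicates.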

Additional observations from a re-analysis of the deposited data

Results flagged for a closer look

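In groups of 4 libraries, a single library stood apart from the other 3 in 14 of 252 groups examined (combination and topotecan values of the genes named, and library measures). Chance alone marks about 1 in 20 such groups. With the combination, replicate 4 was low for TFRC (347.3 CPM, the nearest library at 371) and for EIF2AK2 (107.8 CPM). Combination replicate 2 was high for HSPA1B (289.3 CPM, nearest 256.3), low for NEDD8 (9.255 CPM, nearest 11.52), the only one with a count of MT-TE (0.06855 CPM, the other 3 at 0) and the deepest (13.8 M counts, nearest 9.12). With topotecan, replicate 3 was high for MT-CO2 (5699 CPM, nearest 4583) and MT-CO3 (4142 CPM, nearest 3425), and low for DNAJB9 (29.38 CPM, nearest 33.39). Topotecan replicate 4 was high for CXCL8 (64.36 CPM, nearest 55.11). Topotecan replicate 2 was low for CDKN1A (220.8 CPM, nearest 232.3), NFIL3 (42.67 CPM, nearest 46.8) and FKBP1A (222.9 CPM, nearest 229.4), and replicate 1 for RPL7A (2153 CPM, nearest 2303). The calls of TFRC, HSPA1B, MT-CO2, MT-CO3, NFIL3, FKBP1A and RPL7A held in all 8 fits that leave out 1 library.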

How the results depend on the processing

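The 175 genes called were 0.922% of those tested. With the 20 F7 libraries only 1214 passed (6.79%), with the 8 libraries only 2133 (13.3%). With the replicate block 343 passed (1.81%), all 175 among them, with the block on the F7 libraries 1454 (8.13%) and with the block on the 8 libraries 2516 (15.6%); deviations of same-numbered libraries correlated at 0.0960, -0.0326, 0.0519 and 0.142 over 11020 genes, and replicates 1, 3 and 4 of the combination correlated best with their own number, replicate 2 with number 1. With 1 library left out 0.455 to 0.642% passed, the fewest, 89 genes, without combination replicate 4. DESeq2 gave 261 genes, 161 of the 175 among them, its size factors 174, no filter 59 higher and 66 lower genes, the stricter filter 205 and a robust spread 168. The interaction stayed at 0 calls except with no filter (1). F7 against C6 and G6 stayed at 0 except with DESeq2 (1) and no filter (2). The fall of the minus-strand share was -0.81 to -0.681 percentage points without 1 library, where p could not go below 0.0571 (exact permutation test). The fall of the mitochondrial share was -0.653 points, and -1.02 without rRNA genes (p = 0.0286, exact permutation test). The difference in detected genes was -43.8, 63 with at least 5 counts, and -183 to 141 without 1 library. The log2 differences of some uncalled genes crossed 0 without 1 library: TOP1 (-0.056 to 0.0025), MT-ND1 (-0.093 to 0.078), EIF2AK2 (-0.062 to 0.042), EIF2AK4 (-0.046 to 0.053) and HSF1 (-0.036 to 0.043). The cause of these shifts was not tested. Depth limits what can be said of genes at a few counts, such as mitochondrial tRNAs.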

Other observations

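Several abundant genes outside the lists above fell as well; they were picked out after their values were seen, and no group of them was tested. The actin gene ACTB had 1126, 1105, 1144 and 1134 CPM with the combination and 1512, 1669, 1569 and 1694 CPM with topotecan, groups that did not overlap (log2 -0.52 ± 0.11, adjusted p = 0.00404, edgeR). TPM3, which encodes a tropomyosin that runs along actin filaments, had 269, 289.8, 286 and 289 CPM with the combination and 342, 351, 373 and 338 CPM with topotecan (log2 -0.31 ± 0.05). PPIA, the gene of the prolyl isomerase cyclophilin A, had 547, 569.5, 560.5 and 546 CPM with the combination and 711, 725, 766 and 706 CPM with topotecan (log2 -0.39 ± 0.05). FKBP1A, another prolyl isomerase gene, fell too (log2 -0.31 ± 0.06). These 4 genes passed in all 8 fits that leave out 1 library.

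On the upper side NEAT1, the long non-coding RNA of nuclear paraspeckles, had 904, 886, 973 and 865 CPM with the combination and 571, 611, 593 and 513 CPM with topotecan (log2 0.67 ± 0.09, adjusted p = 1.40e-06, edgeR). NFIL3, a transcriptional repressor of the circadian and immune systems, had 76.2, 85.3, 70.3 and 78.2 CPM with the combination and 47.6, 42.7, 47.4 and 46.8 CPM with topotecan (log2 0.75 ± 0.11, adjusted p = 1.34e-05, edgeR). With OL9-119 alone the log2 differences were 0.36 for NEAT1, 0.63 for NFIL3, -0.44 for ACTB and -0.27 for PPIA.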
